A study of Mus musculus with 6 samples.

Results

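The genes that encode the proteins of the cytosolic ribosome were examined for a difference in splicing between hepatocytes of mice fed a low fat diet (LFD) and a high fat diet (HFD). Members were chosen by name: symbols that begin with Rpl or Rps and a digit, together with Rpsa, Rplp0, Rplp1 and Rplp2, and without pseudogenes (names with -ps) and the Rps6k kinases. The rule found 74 of the 7182 genes with a measured splicing variation and 226 of the 32799 variations. By name, 43 members belong to the large subunit and 31 to the small one. One of the latter, Rps19bp1, is named for a protein that binds S19 and is not itself a ribosomal protein. Of the 86 protein-coding genes that the annotation names in this way, 12 had no variation in the tables: Rpl10l, Rpl24, Rpl32, Rpl35, Rpl39l, Rpl3l, Rpl7l1, Rpl8, Rplp1, Rps27rt, Rps29 and Rps4x.

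Hepatocytes came from male C57BL/6J mice that were raised on chow (13.5% fat). At 8 weeks of age they were moved to feed with 10% fat (LFD) or 60% fat (HFD), which they ate for 12 weeks. Each diet had 3 libraries of stranded, polyadenylated RNA. The deposited values pool the 3 libraries of a diet, so nothing here measures the spread between animals. Read depth per library is unknown for the same reason. All 6 hepatocyte marker genes looked for (Alb, Apoa1, Ttr, Serpina1c, Cyp2e1 and Cps1) had a variation in both tables. So did 1 of 5 macrophage markers (Clec4f), 1 of 4 endothelial (Nrp1), 1 of 4 stellate (Dcn) and 1 of 4 bile duct markers (Spp1). These tables hold shares and no expression levels, so the part of other cell types in any value was not tested, and fewer cells of a type cannot be told apart from less RNA per cell.

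Ribosomal proteins surround the ribosomal RNA of the small and the large subunit, and a cell in growth makes all of them in matched amounts. Their mRNAs are short, abundant, and begin with a 5′ terminal oligopyrimidine tract that places their translation under control of the mTOR pathway. Several of these genes hold small nucleolar RNAs in their introns. Some, among them Rpl3, Rpl12, Rpl10a, Rpl30, Rps3 and Rps13, are known for unproductive splicing, in which an alternative splice site or a retained intron brings in an early stop codon and the transcript is degraded by nonsense-mediated decay.

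A local splicing variation (LSV) is the set of junctions, and of a retained intron where there is one, that leave or enter a single exon. PSI is the share of the LSV's reads given to an entry, from 0 to 1. The deposited values come from a grid of 40 bins, so the lowest value is 0.0125 and the highest 0.9875, called the ends of the scale below. Beside each PSI stands its posterior standard deviation (posterior SD), which covers the sampling of reads within the pooled libraries and not the animals. An entry was called where its PSI differed by at least 0.2 between diets and by more than the 95% margin of the combined posterior SD. Both diets quantified 222 of the 226 member LSVs in 73 genes (98.2%, against 82.0% of all LSVs), with 449 junctions and 109 retained introns.

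The pooled PSI values of these genes differed little between diets. Of the 558 entries, 2 passed the call rule, and both belong to a single LSV of Rpl12. Over all genes, 284 of 68110 entries (0.417%) passed, in 0.624% of LSVs and 2.31% of genes, so 1 gene of 73 lies near the background. At a limit of 0.1, 6 member entries in Rpl12, Rps19 and Rpl31 passed, where 2.87% of all entries, 4.17% of LSVs and 13.4% of genes did. At 0.3 no member entry passed, against 0.0954% of all entries.

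**Figure D1:**
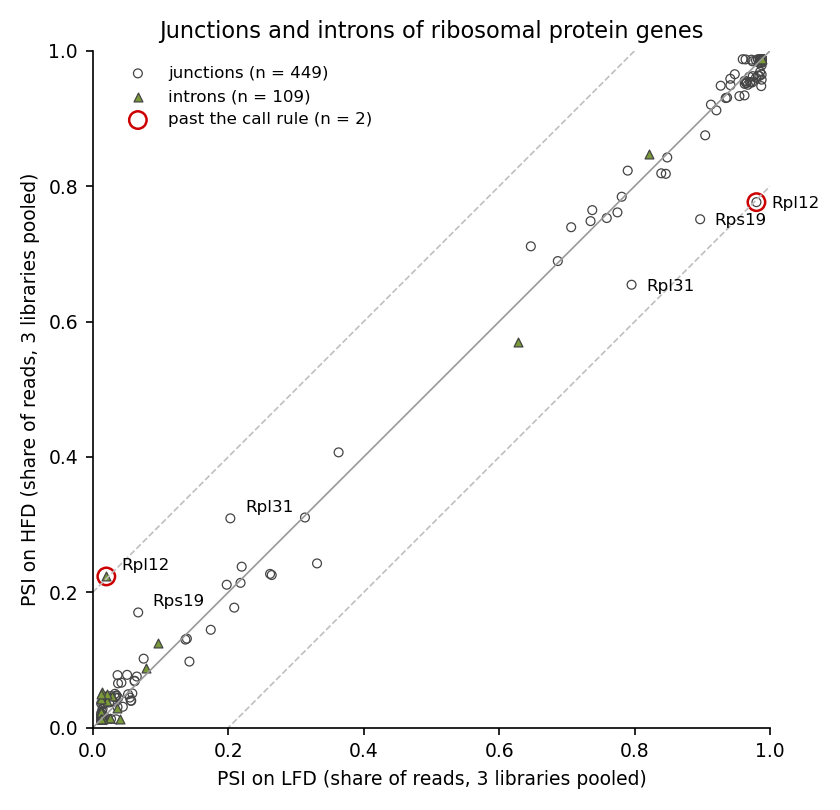
PSI of each entry of the ribosomal protein genes on LFD (x axis) against HFD (y axis), both as shares of reads with 3 libraries pooled. Circles are junctions, triangles retained introns, the dashed lines mark a difference of 0.2, and the red rings mark the 2 Rpl12 entries past the call rule; most points sit in the corners at 0.0125 and 0.9875.

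Most member LSVs stood at the ends of the scale. In 151 of the 222 LSVs (68.0%) every entry stood at an end of the scale on both diets, against 21.8% of all LSVs. The largest difference within an LSV was under 0.05 in 217 of 222 (97.7%, against 85.7% of all). Its median was 4.27e-10 against 0.00681, and its 90th percentile 0.0225 against 0.0647. A single form took at least 0.95 of the reads in 197 LSVs (88.7%) on LFD and 194 (87.4%) on HFD, where all genes gave 72.5% and 73.0%. Values at the ends are clipped by the grid, so differences beyond them cannot be seen, and their read depth was not compared with that of all genes. Between 0.1 and 0.9 on both diets lay only 29 member entries, in 16 LSVs, with a median posterior SD of 0.0292 on LFD and 0.0301 on HFD, against 0.0286 and 0.0321 for all genes.

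**Figure D2:**
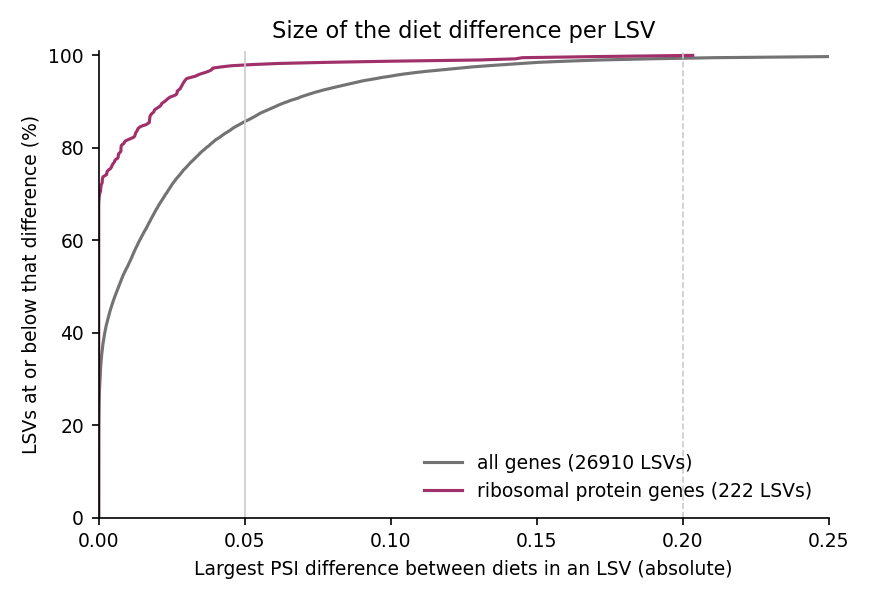
Cumulative share of LSVs (y axis, %) by the largest absolute PSI difference between diets within the LSV (x axis), for the 222 ribosomal protein LSVs and all 26910 LSVs. Grey lines mark 0.05 and 0.2; at 0.05 the ribosomal protein curve has reached 97.7% and the curve of all genes 85.7%.

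By gene, 33 members stood wholly at the ends of the scale. They include Rplp0, the anchor of the stalk, the large subunit genes Rpl4, Rpl6 and Rpl9, and the small subunit genes Rps2, Rps6 (a substrate of S6 kinase), Rps14 and Rps18. A further 15 members had no entry that differed by 0.01 or more, among them Rpl5 and Rpl11, whose proteins bind 5S RNA. In 20 the largest difference lay between 0.01 and 0.05. The last 5 were Rpl12, Rps19, Rpl31, Rpl38 and Rpl41, at 0.05 or more. Both subunits shared this pattern: 63.7% of the 135 large subunit LSVs and 74.7% of the 87 small subunit LSVs stood at the ends, and 4 and 1 LSVs respectively had a difference of at least 0.05. The counts by gene were not made over all genes, so they have no background here. Members had a median of 2 LSVs per gene, against 3 in all genes.

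Rpl12 (ENSMUSG00000038900, chr2:32961559-32965345, plus strand, mm10) encodes the large subunit protein L12, which sits at the base of the stalk where elongation factors bind. It was measured through 11 LSVs. Its last intron, chr2:32963854-32963990, is 137 bases long and lies between the last 2 coding exons. The intron is printed because it carries the difference, with its first and last 2 bases and the first stop codon in the reading frame of the upstream exon in capitals.
Rpl12 last intron: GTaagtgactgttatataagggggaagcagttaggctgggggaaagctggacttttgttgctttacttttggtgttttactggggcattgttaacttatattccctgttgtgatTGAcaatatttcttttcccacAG
Reading on from the 492 coding bases before it, the first in-frame stop codon begins at base 115 of the intron. Normal splicing leaves only 3 more coding bases, after the intron, before the gene's own stop codon.

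Seen from the upstream exon, PSI of this intron was 0.0202 (posterior SD 0.0115) on LFD and 0.224 (posterior SD 0.0287) on HFD. The difference of 0.203 is 6.57 times its combined posterior SD. The spliced junction stood at 0.980 on LFD and 0.776 on HFD. Of the members, only this LSV appears in the authors' deposited table of differential splicing, with 0.024 on LFD and 0.231 on HFD. That table lists 97 of the 26910 matched LSVs (0.36%).

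From the downstream exon the same intron gave much smaller values, 0.0125 on LFD and 0.0427 (posterior SD 0.0145) on HFD. HFD was the higher diet from either side, but the 2 views differed by 0.173 in their change. This is the widest gap among the 50 member introns seen from both exons. Only 2 of the 50, in Rpl12 and Rpl41, had a gap of at least 0.05, and of 3140 such introns in all genes 343 (10.9%) reached 0.05 and 31 (0.987%) reached 0.15. Averaged over both views, PSI was 0.0163 on LFD and 0.133 on HFD, a difference of 0.117 that does not reach the limit of 0.2. Reads from pseudogenes could also enter these counts, and their part was not tested. The annotation holds 2 of Rpl12 with -ps names, and any under other names were not counted.

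Some other Rpl12 introns had higher values on HFD, by smaller amounts. A stretch of 77 bases in the fourth intron (chr2:32963312-32963388), which overlaps the small nucleolar RNA gene Snora65, went from 0.0131 to 0.0522 (posterior SD 0.00386 and 0.0125). The end of the fifth intron (chr2:32963634-32963740) had 0.0291 and 0.0467 from the upstream side and 0.0208 and 0.0400 from the downstream side. The other 3 of the 6 Rpl12 introns stayed at the floor on both diets. None of these smaller differences passed the call rule. That of the fourth intron exceeded the rule's posterior margin (0.0391, combined posterior SD 0.0131). Those of the fifth intron stayed within the margin (combined posterior SD 0.0170 from the upstream side and 0.0143 from the downstream side).

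**Figure D3:**
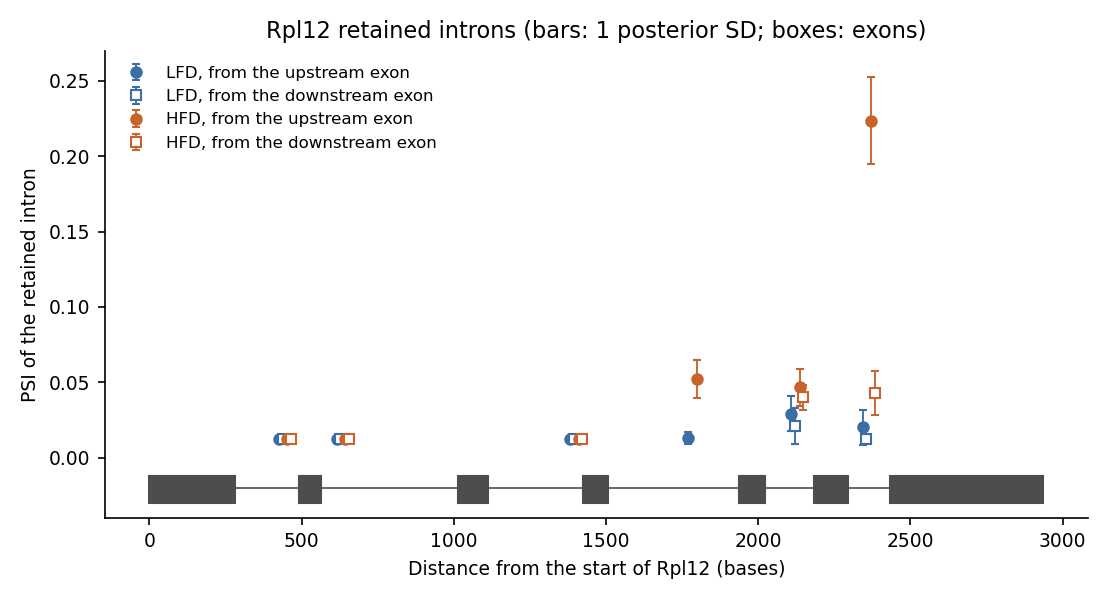
PSI of the Rpl12 retained introns (y axis) by distance from the start of the gene in bases (x axis), with LFD in blue and HFD in orange, filled circles for the view from the upstream exon, open squares for the downstream exon and bars of 1 posterior SD. Boxes below are exons; the last intron stands at 0.224 on HFD from its upstream exon and at 0.0427 from its downstream exon.

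Rpl12 also used an alternative donor in its first intron that the annotation places only in a transcript of the nonsense-mediated decay class. The extension adds the 121 bases below to the first coding exon, with the skipped donor GT in capitals. The number of bases is not a multiple of 3.
Rpl12 first-exon extension: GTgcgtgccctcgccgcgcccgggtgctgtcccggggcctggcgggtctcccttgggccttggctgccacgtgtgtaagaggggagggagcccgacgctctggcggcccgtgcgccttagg
PSI of its junction (chr2:32961960-32962049) was 0.0188 on LFD and 0.0457 on HFD from the upstream exon, and 0.0184 and 0.0447 from the downstream exon. The posterior SDs were 0.0109 and 0.0119 for the former pair, so the difference stays within the 95% margin.

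Across the members, 23 junction entries (18 distinct junctions in 14 genes) occur only in annotated transcripts of the nonsense-mediated decay class. On both diets 12 of the 23 stood at the floor. Of the 6 that differed by at least 0.01, all had the higher PSI on HFD, in Rpl10a, Rpl12 and Rps19; they are 4 distinct junctions, 2 of which flank 1 exon. Over all genes 51.2% of such junctions that differed by 0.01 were higher on HFD. No member junction of this class passed the call rule. Among the 6 member entries, only the junction out of an extra exon of Rps19 differed by more than that rule's posterior margin (0.0282, combined posterior SD 0.0104). The remaining differences, in Rpl10a, Rpl12 and the junction into the Rps19 exon, stayed within the margin. The posterior SD therefore does not separate the diets for them.

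These alternative segments are shown, since each carries the stop codon or the frame change of its unproductive form. Capitals mark the first in-frame stop codon in Rps19 and Rpl10a, the skipped donor GT in Rpl10a, and in Rpl22l1 the AG that ends the intron in the productive form.
Rps19 extra exon, up to its stop (chr7:24886107-24886153): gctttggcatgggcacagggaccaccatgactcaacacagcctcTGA
Rpl10a donor extension, up to its stop (chr17:28329048-28329063): GTtggcaccgctcTAA
Rpl22l1 acceptor extension (chr3:28806670-28806736): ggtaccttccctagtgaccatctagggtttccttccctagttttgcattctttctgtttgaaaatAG

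Rps19 encodes a small subunit protein whose human counterpart is mutated in Diamond-Blackfan anaemia. Its extra exon is 81 bases long, a multiple of 3, but reading from the 172 coding bases before it meets a TGA at base 45. For the junction into this exon, PSI was 0.0424 (posterior SD 0.00994) on LFD and 0.0667 (posterior SD 0.0105) on HFD. The junction out of it, measured at the next exon, had 0.0374 and 0.0657. In the authors' deposited JUM table (from a tool that tests splicing events by junction usage) inclusion of the exon was higher by 0.0405 on HFD, with an adjusted p from JUM of 0.334.

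Rpl10a, a protein of the mobile L1 stalk, lengthened an internal exon through the alternative donor. PSI of that form was 0.0351 (posterior SD 0.00736) on LFD and 0.0478 (posterior SD 0.0124) on HFD at the following exon. At the exon that MAJIQ built around the donor it was 0.0177 (posterior SD 0.0102) on LFD and 0.0366 (posterior SD 0.005) on HFD. Both differences stay within the posterior margin of the call rule. The authors' deposited JUM table gives 0.0181 higher use on HFD with a JUM adjusted p of 0.376.

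Rpl22l1, a paralog of Rpl22, had the highest PSI of this class. The acceptor that adds these 67 bases, not a multiple of 3, stood at 0.137 (posterior SD 0.0170) on LFD and 0.130 (posterior SD 0.0173) on HFD, so the 2 values overlap within their errors. The intron before it (chr3:28806593-28806669, 77 bases) had 0.0217 and 0.0504 from the upstream exon and 0.0127 and 0.0496 from the downstream exon. Of the other genes known for unproductive splicing, Rpl3 had 0.0137 and 0.0125 at its decay junction, and every Rpl30, Rps3 and Rps13 entry stood at an end of the scale on both diets. Rpl27a, a large subunit gene, had 0.0523 on LFD and 0.0495 on HFD.

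**Figure D4:**
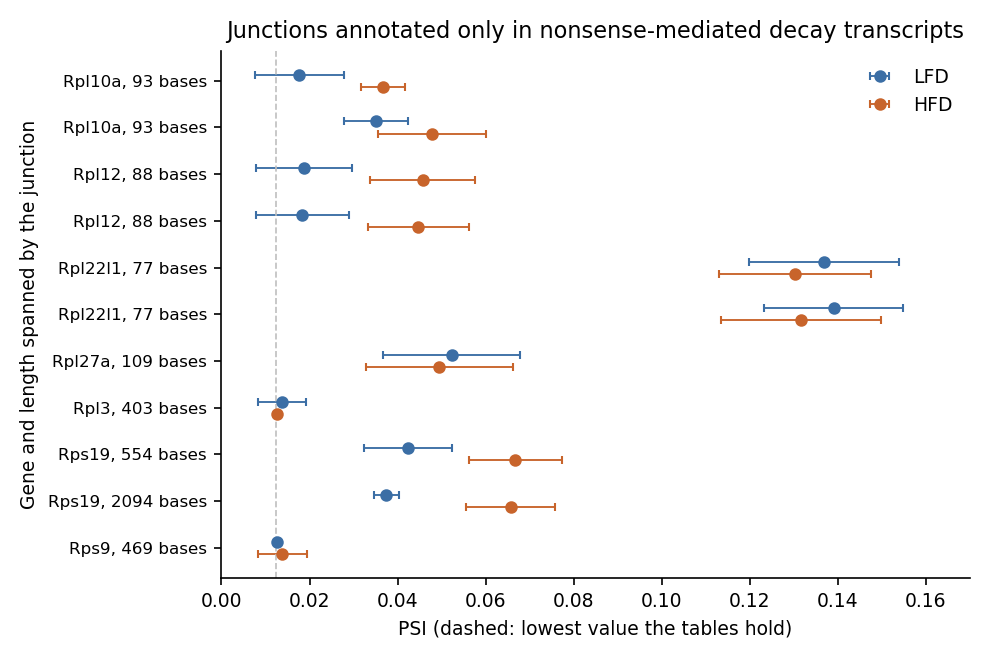
PSI on LFD (blue) and HFD (orange) with bars of 1 posterior SD (x axis) for the member junctions found only in transcripts of the nonsense-mediated decay class and above 0.013 on either diet, by gene and length in bases (y axis; a junction seen from both exons has 2 lines). Rpl10a, Rpl12 and Rps19 have the higher value on HFD and Rpl22l1 stands near 0.13 on both. Of these differences, only that of the junction out of the Rps19 exon exceeds the posterior margin of the call rule.

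Members also varied in the 5′ untranslated region. A mean main form under 0.95 occurred in 27 LSVs (12.2%, against 27.2% of all) in 18 genes. In 9 of the 27 (33.3%, 8 genes) the main junction lies in the 5′ UTR, against 11.3% of such LSVs in all genes. Among LSVs with a mean main form of at least 0.95 the share was also higher in the members, 14 of 195 (7.18%) against 3.49%. The 8 genes are Rps19, Rpl31, Rpl38, Rpl29, Rpl15, Rpl35a, Rpl34 and Rpl36al, and each joins several donors (5′ splice sites) to the first shared exon. These donors change the untranslated leader, except where an annotated start codon lies in the added stretch. Donor windows are shown for the 3 genes with the widest differences, as 5 exon bases and 10 intron bases with the GT of the intron in capitals.
Rps19 main donor (chr7:24884663-24884677): gcacgGTgagtgagg
Rps19 donor 187 bases downstream (chr7:24884850-24884864): gttagGTgggcagcg
Rpl31 main donor (chr1:39367930-39367944): gcagaGTgagtatgg
Rpl31 donor 72 bases downstream (chr1:39368002-39368016): gctcgGTggggtttg
Rpl38 main donor (chr11:114668605-114668619): tcgctGTgagtgtgc
Rpl38 donor 17 bases downstream (chr11:114668622-114668636): ggcagGTggggaagg
The 3 main donors read GTGAGT and the 3 alternative ones shown begin GTGGG. Other, less used donors of these genes begin otherwise, and the Rps19 donor with the higher alternative PSI, 202 bases downstream, is not among the windows.

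In Rps19 PSI of the main donor was 0.897 (posterior SD 0.0182) on LFD and 0.751 (posterior SD 0.0301) on HFD. The difference of -0.15 is 4.13 times its combined posterior SD and stays under the limit of 0.2. The donor 202 bases downstream took 0.0672 on LFD and 0.170 on HFD, and that at 187 bases 0.0367 and 0.0778. The authors' deposited JUM table lists the same pair with a change of 0.0921 towards the downstream donor on HFD, with a JUM adjusted p of 0.348. With 14 annotated pseudogenes of Rps19 under -ps names, shared reads could enter these values, which was not tested.

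Rpl31, a protein near the exit of the peptide tunnel, showed the same order. Its main donor had 0.795 (posterior SD 0.0293) on LFD and 0.654 (posterior SD 0.0434) on HFD, and the donor 72 bases downstream 0.203 and 0.309. The main donor differed by 2.70 times the combined posterior SD. Rpl31 has 24 annotated pseudogenes with -ps names, and the JUM table does not list it.

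Rpl38, whose loss in mice changes the translation of Hox mRNAs, had a main donor with the higher value on HFD. Its main donor had 0.647 (posterior SD 0.0342) on LFD and 0.711 (posterior SD 0.0347) on HFD, and the donor 17 bases downstream 0.331 and 0.243. These differences are 1.32 and 1.90 times their combined posterior SDs. The authors' deposited JUM table gives a change of 0.102 towards the main donor on HFD, with a JUM adjusted p of 0.385.

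In the remaining 5 genes, as in Rpl38, the main donor differed between diets by less than the 95% margin of its combined posterior SD. In Rpl15 the main donor had 0.706 on LFD and 0.739 on HFD and the next, 136 bases downstream, 0.209 and 0.178. Rpl29 used its main donor at 0.775 and 0.761 and one 63 bases downstream at 0.220 and 0.238. In Rpl35a the pair stood at 0.759 and 0.753 and, 45 bases downstream, at 0.198 and 0.211. Rpl34 had 0.848 and 0.842 at its main donor, and Rpl36al, a paralog of Rpl36a, 0.927 and 0.948. Over the 9 LSVs, in which Rpl36al is seen from 2 exons, the main donor was lower on HFD in 5 and higher in 4.

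**Figure D5:**
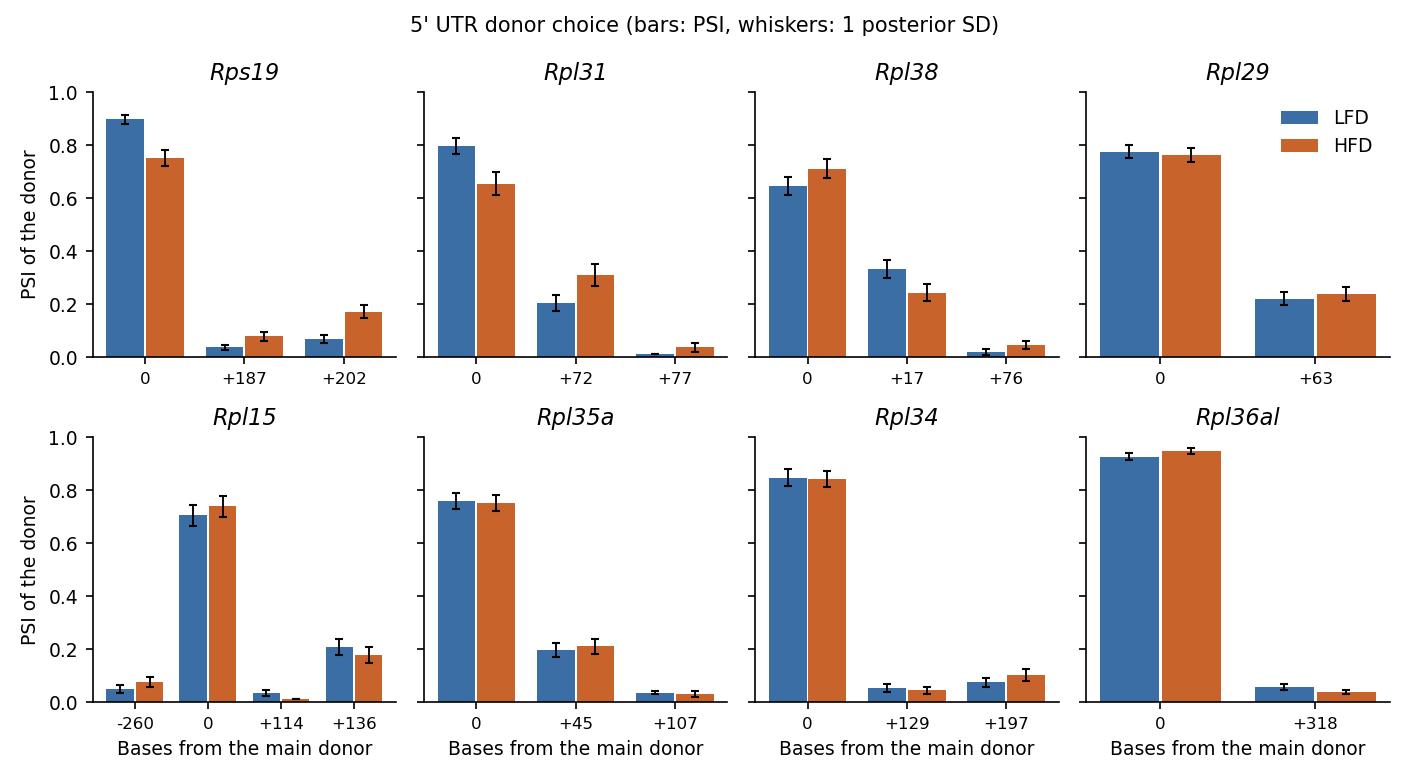
PSI (y axis, from 0 to 1) of the 5′ UTR donors of 8 ribosomal protein genes by distance in bases from the main donor (x axis), with LFD in blue, HFD in orange and whiskers of 1 posterior SD; donors with a PSI of at least 0.02 on either diet are drawn. The main donor is lower on HFD in Rps19 (0.897 to 0.751) and Rpl31 (0.795 to 0.654) and higher in Rpl38 (0.647 to 0.711).

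In 14 of the 27 LSVs the main junction lies in the coding region (51.9%, against 74.3% in all genes). They include those of Rpl12, Rps19 and Rpl22l1 above, retained introns of Rpl23a described with the other introns, and pairs of splice sites a few bases apart. Rpl13a, a large subunit gene, used its main junction at 0.790 on LFD and 0.823 on HFD, and a junction annotated only in non-coding transcripts at 0.143 and 0.0979. Among all member junctions, 38 distinct pairs in 29 genes shared one end and lay at most 12 bases apart at the other. In 4 of these pairs (10.5%, against 22.2% of such pairs in all genes) the lesser site reached a mean PSI of 0.05. They are in Rpl22l1, Rpl5 and Rplp2, 3 bases apart, and in Rps28, 4 bases apart. The Rpl22l1 pair is a tandem acceptor, shown with both AGs in capitals.
Rpl22l1 tandem acceptors (chr3:28806490-28806509): ttatgtctAGcAGaaagaca
The upstream acceptor stood at 0.313 on LFD and 0.311 on HFD, and the downstream one 0.687 and 0.689. In Rpl5 the lesser donor, which is not annotated, stood at 0.218 and 0.214. In Rplp2, one of the acidic stalk proteins, the lesser acceptor had 0.0620 and 0.0688. Rps28 divided its reads between 2 donors in the 3′ UTR, with 0.737 on LFD and 0.765 on HFD for the main one.

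Rps24, a small subunit gene also linked to Diamond-Blackfan anaemia, is known for short alternative exons at the end of its coding region. The exon below is 20 bases long and begins with a stop codon in the frame of the exon before it, while the form without it reads on to a later stop; stop codons are in capitals.
Rps24 20-base exon (chr14:24495430-24495449): TGAgtggagattggatacag
Rps24 last exon, up to its stop (chr14:24495775-24495786): ccaaaggagTAG
Skipping was the main form, at 0.963 on LFD and 0.951 on HFD. The junction into the 20-base exon had 0.0328 (posterior SD 0.0108) and 0.0451 (posterior SD 0.0118), and the junction out of it 0.0146 and 0.0279. In the authors' deposited JUM table inclusion was 0.0237 higher on HFD, with a JUM adjusted p of 0.264. The further alternative exon of 18 bases stood at the floor on both diets. Rps27l, a paralog of Rps27, used its main coding junction at 0.974 and 0.962.

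Retained introns were often listed but seldom above the floor. An intron was part of 109 of the 222 member LSVs (49.1%, against 25.5% of all). On both diets 86 of the 109 (78.9%) stood at the floor, where 1440 of all 6850 introns did. PSI was at least 0.05 in 5 (4.59%) on LFD and 8 (7.34%) on HFD, against 30.6% and 32.4% of all introns. The median length of the 59 distinct introns as listed was 102 bases, against 99 for all. Some of the listed stretches are only part of a longer spliced intron, as in Rpl12 and Rpl13a.

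Among the 14 intron entries that differed by at least 0.01, 11 (78.6%, against 55.4% of all) had the higher value on HFD. These 14 are 10 distinct introns, 8 of them higher on HFD, and 5 of the 11 entries belong to Rpl12. A small nucleolar RNA gene overlaps 6 of the 59 distinct introns (10.2%, against 0.458% of all): Snora65 in Rpl12, Snora64 in Rps2, Gm24134 in Rpl7a, and Snord34, Snord33 and Snord32a in Rpl13a. The 5 outside Rpl12 stood at the floor on both diets.

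Rpl41, which encodes the smallest ribosomal protein, had the highest PSI among introns with an intermediate value. Its intron in the 5′ UTR (chr10:128548974-128549087) also lies inside an exon of a coding transcript. From one flanking exon it had 0.821 on LFD and 0.847 on HFD, and from the other 0.627 and 0.570, with posterior SDs of 0.0353 to 0.0634. Another such intron, in Rpl18 (chr7:45720358-45720437), stood at 0.9875 on both diets. Rpl23a, near the exit of the peptide tunnel, retained the intron chr11:78180998-78181153 at 0.0958 and 0.125 from one exon and 0.0793 and 0.0880 from the other. In Rpl7a the intron chr2:26910831-26911005 had 0.0404 on LFD and 0.0125 on HFD from the downstream exon, but 0.0128 and 0.0125 from the upstream one, so the lower value on HFD was seen from one side. An Rpl22 intron (chr4:152327360-152327479) had 0.0251 on LFD and 0.0148 on HFD, and one of Rpl27a (chr7:109519476-109519584) 0.0354 and 0.0298. Both differences stay within the posterior margin. From 1 exon, an Rpl13a intron (chr7:45127093-45127208) had 0.0125 on LFD and 0.0268 on HFD, and one of Rps28 (chr17:33823117-33823192) 0.0125 and 0.0240.

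Over all entries of an LSV, the main form differed by at least 0.01 in 39 member LSVs (17.6%, against 43.7% of all) in 23 genes. It was lower on HFD in 26 of the 39 (66.7%), in 14 genes, against 46.9% over all genes. Rpl12 accounts for 7 of those 26: without it the count is 19 of 32 (59.4%).

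The authors' deposited JUM table lists 5 member events, in Rpl10a, Rpl38, Rps19 (2 events) and Rps24, and none is an intron event. Their JUM adjusted p-values run from 0.264 to 0.385, so 0 of the 5 passed an adjusted p of 0.05, and 5 of 5 have an unadjusted p under 0.05, which the whole table shares. Among all 470 listed events 83 (17.7%) passed.

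Other genes of the translation machinery were read against the 0.417% of all entries that passed, at which lists of this size hold few calls or none. No entry passed the call rule in 65 mitochondrial ribosomal protein genes (472 entries). The same held for 15 of 18 listed elongation factor and other TOP mRNA genes (202 entries), for the 18 ribosome assembly genes measured on both diets (219 entries) and for 6 non-coding hosts of small nucleolar RNAs (94 entries). In the authors' deposited table of differential splicing, Mrpl57 has a junction at 0.759 on LFD and 0.973 on HFD, and the nucleolar gene Gnl3 a retained intron at 0.158 and 0.373. Neither is among the calls, which cover only LSVs matched between diets, as were 97 of the 124 in that table. The lack of calls therefore does not mean that these lists hold no large difference. Mrpl18 is listed in the authors' deposited JUM table with a change of 0.185 and a JUM adjusted p of 0.163. The median largest difference per LSV was 0.00502 in the mitochondrial list, 9.17e-05 in the elongation factor and TOP mRNA list, 0.00984 in the assembly list and 0.0279 in the non-coding hosts, against 0.00681 in all genes.

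A member LSV was quantified on only one diet in 4 cases. On HFD these were the 2 LSVs of Rps19bp1, whose intron had a PSI of 0.0168 from either exon. On LFD they were an LSV of Rps9, with an intron at 0.0153, and one assigned to Rpl13a (chr7:45135664-45135777) that lies outside the annotated gene, with 0.856 for its main junction.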

How the data were processed

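RNA of 6 hepatocyte libraries, 3 per diet, was sequenced by the submitters in paired-end runs. Per the submitters' processing notes, FastQC and STAR were used with mm10; no source used here gives versions. The authors deposited 4 tables: PSI shares with posterior variances from MAJIQ for each diet, its table of differential splicing, and the JUM table, which lists events with p under 0.05. No table holds counts or values per library, so intervals between animals could not be computed. On the minus strand the source and target exons of these tables follow coordinates, not transcription.

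LSVs were matched by identifier. The posterior SD is the root of the deposited variance. Calls needed a PSI difference of at least 0.2 and more than the 95% margin of the combined posterior SD (normal approximation). The rule was tested on simulated reads only. That simulation had no spread between animals and no clipping at the ends of the scale, so it does not cover them. A value within 0.0001 of 0.0125 or 0.9875 counted as an end of the scale. Junctions were assigned to transcript classes with GENCODE M21 (GRCm38, the build of mm10) by exact coordinates, and sequences were read from its transcripts. Python 3.11.15 with pandas 2.3.3 was used.

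Named were the members in the authors' comparison tables, the 10 with the largest difference, the 10 with the highest intron PSI, the 10 with the lowest main form, Rps24, 6 genes known for unproductive splicing, and the paralogs measured. Others named to describe a group were chosen after their values were seen. The members and lists were chosen with earlier results of these data known. JUM positions differ from those of MAJIQ by up to 2 bases. A list of ribosomal protein genes with other names is not reported here.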

Additional observations from a re-analysis of the deposited data

How the results depend on the processing

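The count of 2 called entries became 6 at a limit of 0.1, 0 at 0.3, 0 when PSI was averaged over the LSVs that hold the same coordinates, and, chosen after seeing the data, 0 without Rpl12. It stayed at 2 without the condition on the posterior variance and with posterior SDs under 0.05. Counting all listed JUM events gave 5 in place of 0. Introns with a PSI of at least 0.05 numbered 5 on LFD and 8 on HFD; at a limit of 0.1 they numbered 3 and 5, and with each intron counted once 3 and 6. Without introns inside exons of coding transcripts, an alternative added after seeing the data, they numbered 2 and 5. LSVs with a main form of at least 0.9 made up 92.8% on LFD and 91.9% on HFD. The share of LSVs with an intron was 48.2% over source LSVs alone, and the median largest difference was at most 6.84e-09 in each alternative run. The Rpl12 LSV of the authors' deposited table of differential splicing has a listed probability of at least 0.95. A Mrpl57 junction there with a change of only -0.0114 has one too, so that limit says little about the size of a difference. No paired analysis was possible because the tables pool the libraries of a diet, and no library could be left out for the same reason. Posterior SDs limit precision to about 0.03 at intermediate PSI.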
